A study of Arabidopsis thaliana with 12 samples.

Results

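In seedlings of the Arabidopsis thaliana mutant dcp5-1, 113 of the 38088 loci in the expression table were at least 1 log2 unit above the Col-0 accession both before salt and after 60 min in salt, without overlap between the libraries of the genotypes at either time. The members were chosen from the measured values themselves. Each needed a mean of at least 1 FPKM (fragments per unit of transcript length and of sequencing depth) over all 12 libraries, a mean log2(FPKM + 1) at least 1 higher in dcp5-1 than in Col-0 at 0 min and again at 60 min, and a lowest dcp5-1 library above the highest Col-0 library at each time. Of the 19806 nuclear loci that reached the expression minimum, 118 met this rule, which is 0.596%, and 5 of them, among them 3 further heat shock genes, are not described here. The opposite rule, at least 1 log2 unit lower in dcp5-1 at both times, was met by 109 loci, or 0.55%. The genotype differences of the members are therefore given as a description, without a test, and only their responses to salt are tested.

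The 4 groups, with 3 libraries each, were dcp5-1 seedlings at 0 min and at 60 min in NaCl and Col-0 seedlings at 0 min and at 60 min in NaCl. All were 5-d-old whole seedlings, grown on 1x MS agar at 22 °C with 16 h of light after 3 days of imbibition at 4 °C, moved to liquid MS for 30 min and then to liquid MS with 150 mM NaCl. dcp5-1 is a mutant allele of DCP5 and the only allele among the samples, so effects of DCP5 and of anything else carried in this line cannot be told apart. No group spent 60 min in liquid medium without NaCl, so salt and a longer time in liquid cannot be told apart. Whether the 3 replicates of a group were grown apart is not stated, so p-values reflect the library-to-library spread, part or all of which may be technical.

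DCP5 is an RNA-binding protein of the LSM14 family that works with the decapping enzyme DCP2 and its partners DCP1 and VARICOSE in P-bodies. Removal of the 5′ cap by this complex exposes an mRNA to the cytoplasmic exonuclease XRN4, and DCP5 also holds mRNAs out of translation. Loss of a decapping factor in Arabidopsis is known to impair seedling development and to change the levels of many, but not all, mRNAs.

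The libraries held the equivalent of 14542500 to 21020000 reads, and 23810 to 24223 loci were above 0 in each. The DCP5 transcript had 13, 13 and 13.2 FPKM in dcp5-1 at 0 min, against 48.5, 51.7 and 52.1 FPKM in Col-0, and 20.7, 20.2 and 20.6 FPKM in dcp5-1 at 60 min, against 78.8, 84.9 and 76.6 FPKM in Col-0. All 6 dcp5-1 libraries lay below all 6 Col-0 libraries, with means at 25.7% and 25.6% of Col-0 at 0 and 60 min (log2 difference -1.88, SE 0.047, limma adjusted p = 6.38e-10 at 0 min). Of 20 cell type markers tested, none was a member, 3 were higher and 11 lower in dcp5-1 at 0 min, and 4 were higher and 11 lower at 60 min. Across all loci tested 18.8% were called higher and 28.1% lower in dcp5-1 at 0 min, and 27.1% and 27.4% at 60 min. The summed level of the markers, most of it from the mesophyll genes LHCB1.3, LHCB2.1 and CAB3, was 8112 to 8453 FPKM in dcp5-1 and 13180 to 17560 FPKM in Col-0 at 0 min, and 4913 to 5186 FPKM in dcp5-1 and 7025 to 7971 FPKM in Col-0 at 60 min. OLEO1, an oil body protein of seeds, had the largest difference of the markers tested, with means of 0.365 FPKM in dcp5-1 and 4.73 FPKM in Col-0 at 0 min (-2.08 log2 units, limma adjusted p = 2.54e-06), while the seed storage protein gene CRU3 was listed at 0 in every library. CAB3 differed by -1.34 log2 units at 0 min (limma adjusted p = 1.59e-06) and XCP1, a xylem protease, by 0.83 (limma adjusted p = 6.12e-06). The other vascular markers went the opposite way to XCP1 at 0 min. IRX3 differed by -0.56 (limma adjusted p = 0.000587) and SUC2 by -0.55 (limma adjusted p = 2.11e-05). The part of tissue make-up in the members' levels was not tested, and in whole seedlings fewer cells of a type and less RNA per cell cannot be told apart.

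The differences of the members ranged from 1.00 to 5.90 log2 units at 0 min, with a median of 1.43, and from 1.00 to 5.82 at 60 min, with a median of 1.41. The same medians over all loci tested were -0.05 and -0.01. Of the 113 members, 14 were at least 2 log2 units higher in dcp5-1 at both times, 35 at least 1.5, and for 30 the smaller of the 2 differences was within 0.1 of the limit. Just inside the limit of 1 were emb1692, a ubiquitin hydrolase family gene, with 1.0004 at 0 min and 1.3192 at 60 min, AT5G24060, a pentatricopeptide repeat gene, with 1.0016 and 1.0609, and the nucleotide sugar transporter gene UTR1 with 1.2366 and 1.0017. Just outside were AT1G03820 with 1.4882 at 0 min and 0.9972 at 60 min, AT5G05060 with 0.9961 and 1.4179, and AT1G68350 with 0.9926 and 1.9392. A further 16 loci passed 1 at both times but had overlapping libraries. In level the members spanned more than 3 orders of magnitude, with 18 above 100 FPKM and 46 under 10 FPKM on average over the dcp5-1 libraries, and the log2(FPKM + 1) scale understates the difference of low loci.

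**Figure D1:**
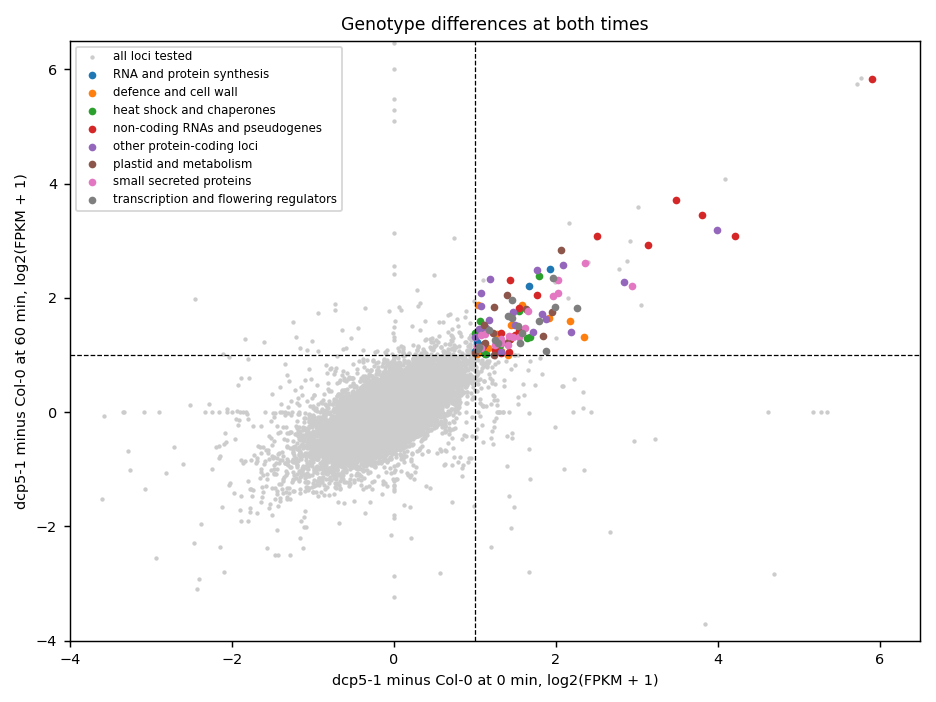
Mean dcp5-1 minus Col-0 difference of log2(FPKM + 1) at 0 min (x axis) and at 60 min (y axis) for all loci tested (grey) and for the 113 members by functional group (colours). Dashed lines mark the limit of 1 log2 unit at each time, all members lie beyond both because they were chosen so, and 40 loci lie outside the axes.

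The members were sorted by hand into 8 groups by the product named in the annotation: 18 small secreted proteins, 18 other protein-coding loci, 17 non-coding RNAs and pseudogenes, 16 regulators of transcription and flowering, 14 plastid and metabolism genes, 12 defence and cell wall genes, 11 heat shock and chaperone genes, and 7 genes of RNA and protein synthesis. The median difference of a group lay between 1.12 and 1.54 at 0 min and between 1.18 and 1.83 at 60 min, highest at both times for the non-coding RNAs and pseudogenes. Within each genotype the libraries of a group were close to each other next to the gap between genotypes, and the exceptions were mostly low loci.

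**Figure D2:**
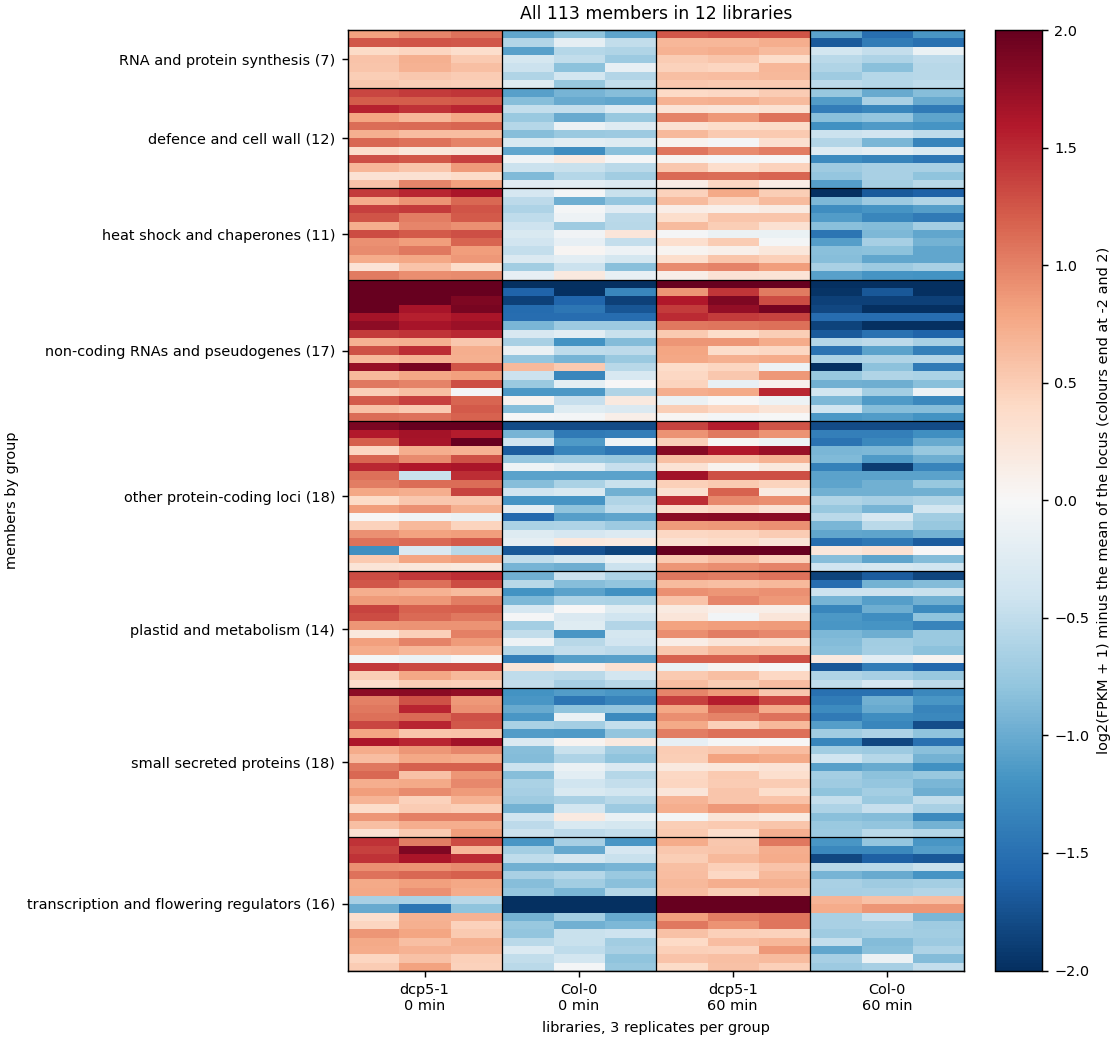
All 113 members (rows, by group, ordered by their difference at 0 min) in the 12 libraries (columns, replicates 1 to 3 in each block), coloured by log2(FPKM + 1) minus the locus's mean, with colours ending at -2 and 2 (12 members go beyond). The 6 dcp5-1 columns are redder than the Col-0 columns of the same time in every row, which the rule requires, and CIB1 and RVE2 are also far redder at 60 min than at 0 min in both genotypes.

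Among the regulators were several with opposite textbook roles in flowering. FLC, a MADS-box repressor of flowering that acts on the florigen gene FT, had 54.3, 62.1 and 56.1 FPKM in dcp5-1 at 0 min, against 13.2, 15 and 13.8 FPKM in Col-0. At 60 min FLC had 27.5, 30.6 and 32.8 FPKM in dcp5-1 and 4.73, 5.56 and 5.26 FPKM in Col-0. The lowest dcp5-1 library was thus above the highest Col-0 library by a wide margin, and the differences were 1.96 log2 units at 0 min and 2.34 at 60 min. ATC, a member of the TERMINAL FLOWER 1 family that delays flowering, had 59.9, 63.1 and 60.5 FPKM in dcp5-1 at 0 min against 19, 21.2 and 19.3 FPKM in Col-0, and 55.9, 58.6 and 58 FPKM in dcp5-1 at 60 min against 22.1, 21.1 and 21.5 FPKM in Col-0. TFL1 itself, which keeps the shoot apex indeterminate, was lower in level but showed the same order, with 2.83, 3.95 and 3.9 FPKM in dcp5-1 at 0 min against 0.577, 0.897 and 0.512 FPKM in Col-0. CIB1, a basic helix-loop-helix factor that binds cryptochrome 2 and promotes FT transcription, had 5.19, 3.54 and 6.07 FPKM in dcp5-1 at 0 min against 1.09, 1.07 and 1.19 FPKM in Col-0. After 60 min CIB1 had 86.9, 83 and 85.8 FPKM in dcp5-1 against 19.7, 21.8 and 21.9 FPKM in Col-0, so that the Col-0 libraries at 60 min lay above the dcp5-1 libraries at 0 min. RVE2, a MYB-like factor related to the clock regulators, had 26, 26.4 and 28 FPKM in dcp5-1 at 0 min against 9.22, 7.32 and 9.47 FPKM in Col-0, and 187, 183 and 189 FPKM in dcp5-1 at 60 min against 67.1, 63.2 and 64.1 FPKM in Col-0.

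FLC was the only member among 14 genes of its clade and its regulators. Of the 13 others, 4 were higher and 4 lower in dcp5-1 at 0 min, and 2 were higher and 6 lower at 60 min (3 lower once the trend with transcript length was removed, and 1 higher with quantile normalization). MAF4, a close relative of FLC, was 0.50 log2 units higher in dcp5-1 at 0 min (limma adjusted p = 0.00554), and SVP, the MADS-box partner of FLC in repressing FT, was 0.66 lower (limma adjusted p = 3.75e-05). FRI, the activator of FLC that carries a loss-of-function allele in Col-0, had mean levels of 3.81 FPKM in dcp5-1 and 3.75 FPKM in Col-0 at 0 min (limma adjusted p = 0.842). FVE, an autonomous-pathway repressor of FLC, was 0.38 lower in dcp5-1 at 0 min (limma adjusted p = 0.00142) but did not pass at 60 min (-0.15, limma adjusted p = 0.112). In the same list at 0 min, FLM was 0.35 higher (limma adjusted p = 4.61e-05). FPA and LD were 0.27 and 0.24 higher (limma adjusted p = 0.0124 and 0.0272), FY was 0.25 lower (limma adjusted p = 0.00894), and FCA and FLD did not pass. At 60 min FPA was instead 0.30 lower in dcp5-1 (limma adjusted p = 0.00499), and LD did not pass (0.05, limma adjusted p = 0.657). FCA and FLD were then 0.41 and 0.54 lower (limma adjusted p = 0.00458 and 7.2e-05), and FY was 0.26 lower (limma adjusted p = 0.00702). The antisense transcript annotated across FLC, AT5G01675, was below the expression minimum, with a mean of 1.39 FPKM in dcp5-1 and 0.824 FPKM in Col-0 at 0 min.

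MYB28, the main activator of aliphatic glucosinolate synthesis, had 60.4, 59.3 and 61.6 FPKM in dcp5-1 at 0 min, against 15.7, 15.6 and 16.1 FPKM in Col-0. At 60 min it had 48.5, 44.2 and 47 FPKM in dcp5-1 and 21, 21.3 and 22.8 FPKM in Col-0. Replicates of MYB28 were tight, and its difference was 1.88 log2 units at 0 min and 1.07 at 60 min. None of 10 tested genes of glucosinolate breakdown was a member: 2 were higher and 5 lower in dcp5-1 at 0 min, and 4 were higher and 3 lower at 60 min. The beta-glucosidase gene PYK10, an abundant ER body enzyme, was 0.33 log2 units higher in dcp5-1 at 0 min (limma adjusted p = 0.00178), and the myrosinase gene TGG1 was 0.23 higher (limma adjusted p = 0.00592). The related beta-glucosidase gene BGLU18 was 1.97 lower (limma adjusted p = 1.83e-09), and the atypical myrosinase gene PEN2 was 1.05 lower (limma adjusted p = 2.71e-07).

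The other regulators included FLP, a MYB factor that ends the divisions of the stomatal lineage, with 23.2, 25.6 and 22.7 FPKM in dcp5-1 at 0 min and 7.34, 6.52 and 8.53 FPKM in Col-0. NAC103, a NAC factor of the unfolded protein response, had 8.38, 8.81 and 9.17 FPKM in dcp5-1 at 0 min and 1.83, 1.99 and 1.65 FPKM in Col-0. A pair of adjacent MADS-box genes on chromosome 1, AT1G59920 and AT1G59930, was close to 0 in Col-0. AT1G59920 had 5.15, 3.55 and 4.55 FPKM in dcp5-1 at 0 min and 0, 0.419 and 0 FPKM in Col-0, and AT1G59930 had 5.33, 7.97 and 2.89 FPKM in dcp5-1 and 0.524, 0.205 and 0.934 FPKM in Col-0. Both genes belong to the same family, and reads could have been split between them.

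**Figure D3:**
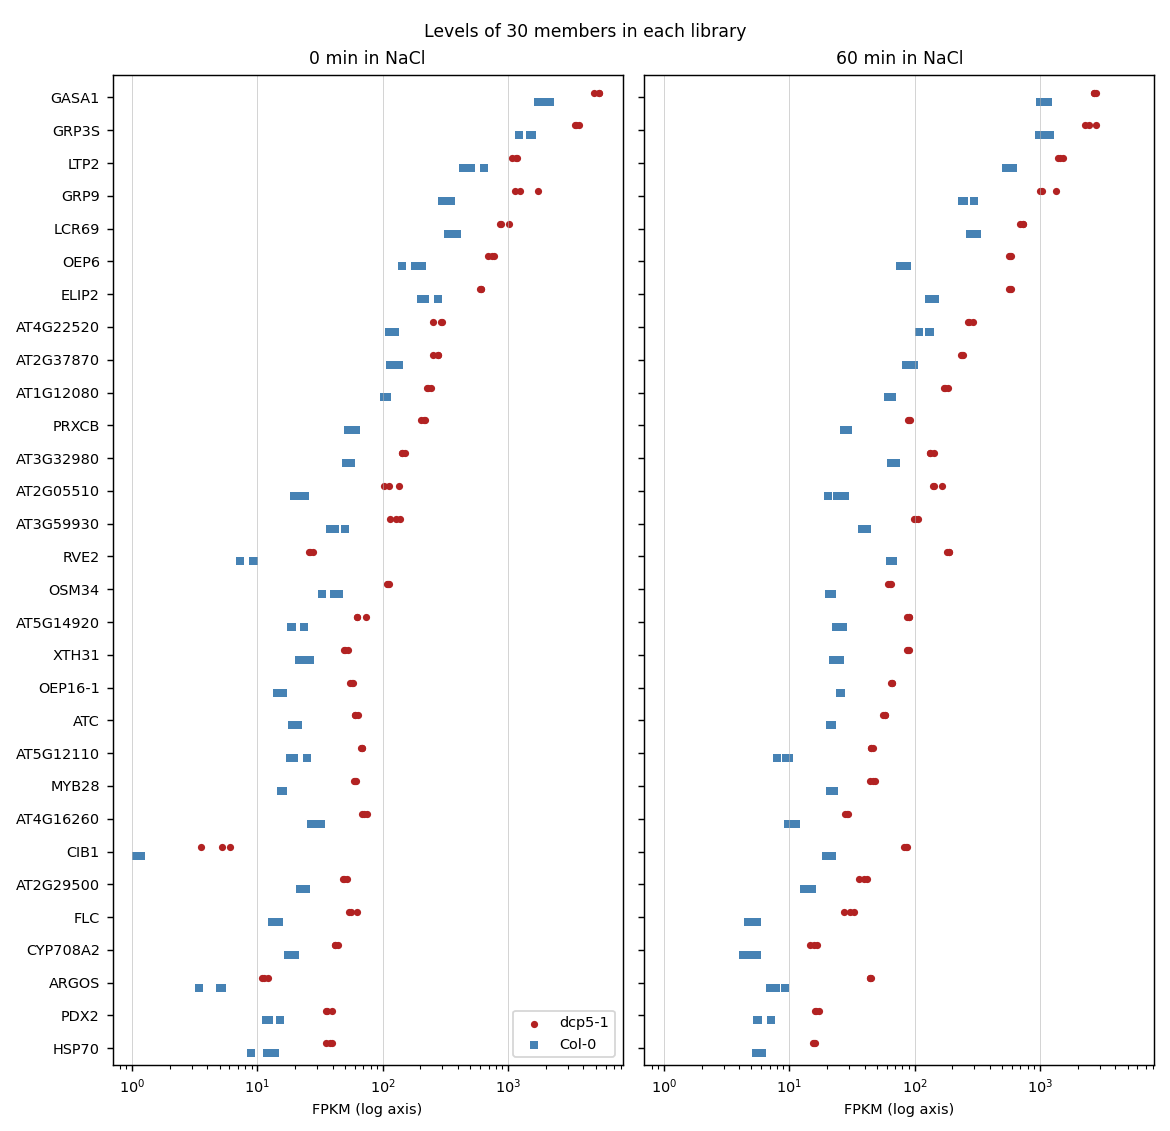
FPKM on a log axis of the 30 named members with the highest mean in dcp5-1, at 0 min (left) and 60 min (right), one symbol per library (circles dcp5-1, squares Col-0). The genotypes do not overlap for any of them because the rule asked for that, and GASA1 has the highest levels, at 4861 to 5352 FPKM in dcp5-1 against 1739 to 2163 FPKM in Col-0 at 0 min.

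Heat shock genes form a regulon under heat shock factors, which bind inverted GAA repeats near the start site, and their products keep unfolded proteins soluble. HSFA2, the factor that sustains the heat response, had 3.56, 4.47 and 4.24 FPKM in dcp5-1 at 0 min, against 1.08, 0.7 and 0.892 FPKM in Col-0. HSP17.4, a cytosolic small heat shock protein, had 29.8, 32.5 and 35.4 FPKM in dcp5-1 at 0 min against 8.24, 10.3 and 7.54 FPKM in Col-0, and 15, 18.7 and 15.4 FPKM in dcp5-1 at 60 min against 1.68, 2.64 and 2.8 FPKM in Col-0. Its differences were 1.80 and 2.38 log2 units at 0 and 60 min, the largest of the 11 heat shock and chaperone members at both times. The inverted repeat GAA, any 2 bases, TTC, any 2 bases, GAA, searched on both strands in the 250 bases before the annotated start, lay in 2 of the 113 members, which were these 2 genes, and in 82 of 19805 tested loci with a readable window (1.77% of members, 0.414% of loci tested). They are shown because they are the heat shock members in which the motif stands, read from TAIR10.1, with the motif in capitals:
HSFA2, chr2:11135374-11135623, plus strand: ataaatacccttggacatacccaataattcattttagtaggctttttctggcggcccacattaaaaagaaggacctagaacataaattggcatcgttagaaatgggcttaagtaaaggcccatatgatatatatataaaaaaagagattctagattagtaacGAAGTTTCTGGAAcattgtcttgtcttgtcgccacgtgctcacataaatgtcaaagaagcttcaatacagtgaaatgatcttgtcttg
HSP17.4, chr3:16984868-16985117, minus strand: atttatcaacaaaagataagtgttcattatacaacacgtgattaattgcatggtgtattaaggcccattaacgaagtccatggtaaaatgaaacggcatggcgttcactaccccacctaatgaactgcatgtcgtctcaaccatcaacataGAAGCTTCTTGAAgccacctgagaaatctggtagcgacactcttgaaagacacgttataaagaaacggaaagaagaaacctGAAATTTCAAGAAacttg
The HSP17.4 window held the motif 2 times and the HSFA2 window 1 time, and the windows of the other 9 genes did not hold these letters. The G-box CACGTG, bound by light-regulated factors, was in 8 member windows (7.08%, against 7.4% of loci tested), and the evening element AAAATATCT, bound by clock factors, in 4 (3.54%, against 2.36%). A match is a description of the sequence and not a binding site.

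The members of the group came from several compartments. HSP70, a heat-inducible cytosolic chaperone, had 38.3, 39.4 and 35.5 FPKM in dcp5-1 at 0 min against 8.92, 13.9 and 12 FPKM in Col-0, and 15.7, 15.4 and 16.1 FPKM in dcp5-1 at 60 min against 5.47, 5.78 and 6.09 FPKM in Col-0. HSP21, a small heat shock protein of plastids, had 5.08, 6.53 and 5.55 FPKM in dcp5-1 at 0 min against 2.11, 2.75 and 1.82 FPKM in Col-0. HSP23.6-MITO, its counterpart in mitochondria, had 3.32, 3.07 and 4.13 FPKM in dcp5-1 at 0 min against 0.747, 1.04 and 0.636 FPKM in Col-0. HSP21 and HSP23.6-MITO were thus present at a few FPKM, well below HSP70. AT2G29500, another small heat shock protein gene, had 47.9, 49 and 52.2 FPKM in dcp5-1 at 0 min and 22.9, 24.3 and 22 FPKM in Col-0. Small heat shock proteins and HSP70s are multigene families, and values of close copies are uncertain where reads could be shared.

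Of 12 tested genes in a list of heat shock and folding genes, 5 were members. HSP22.0 was also listed but not matched by that symbol, so the member AT4G10250, annotated as ATHSP22.0, is not in these counts. Of the 7 other tested genes, 2 were higher in dcp5-1 at 0 min. In the limma fit 5 did not pass at that time (1 of them was lower with the length trend removed), among them HSP18.2 (-0.33 log2 units, adjusted p = 0.0589), HSFA7A (-0.25, adjusted p = 0.0894) and MBF1C (0.25, adjusted p = 0.145). The 2 that were higher were HSP101, the disaggregase of heat tolerance, at 0.60 log2 units (limma adjusted p = 0.00119), and ROF1, a co-chaperone, at 0.46 (limma adjusted p = 9.29e-05). At 60 min 2 of the 7 were higher and 1 lower, the lower being HSFA7A.

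Genes for small secreted proteins held the highest levels. GASA1, a gibberellin-regulated cysteine-rich peptide, had 4861, 5328 and 5352 FPKM in dcp5-1 at 0 min, against 1739, 2163 and 1922 FPKM in Col-0. At 60 min it had 2677, 2723 and 2815 FPKM in dcp5-1 and 1100.0, 1164 and 1008 FPKM in Col-0. With means of 5180.0 ± 277 FPKM in dcp5-1 and 1941 ± 213 (SD, n = 3) FPKM in Col-0 at 0 min, the ratio of means was 2.67. AT5G14920, another gibberellin-regulated gene of this family, had 73.4, 62 and 62.8 FPKM in dcp5-1 at 0 min and 18.8, 18.6 and 23.8 FPKM in Col-0.

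A cluster of 3 glycine-rich protein genes lay within 50.2 kb on chromosome 2. GRP3S had 3433, 3702 and 3481 FPKM in dcp5-1 at 0 min against 1219, 1550.0 and 1489 FPKM in Col-0. GRP9 had 1256, 1728 and 1135 FPKM in dcp5-1 at 0 min against 299, 346 and 351 FPKM in Col-0, and AT2G05510 had 112, 135 and 102 FPKM in dcp5-1 against 24, 19.5 and 21.5 FPKM in Col-0. Along the cluster the difference at 0 min was 1.32, 2.03 and 2.36 log2 units, and at 60 min 1.20, 2.09 and 2.60, in the order of the genes. These genes share repetitive coding sequence, and reads could have been shared between them.

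Lipid transfer proteins carry lipids to the cuticle and cell wall. LTP2 had 1082, 1184 and 1164 FPKM in dcp5-1 at 0 min against 435, 648 and 507 FPKM in Col-0, and 1384, 1518 and 1457 FPKM in dcp5-1 at 60 min against 541, 607 and 534 FPKM in Col-0. The related genes AT4G22520, AT2G37870 and AT4G22610 differed by 1.25, 1.07 and 1.08 log2 units at 0 min. Defensins and defensin-like peptides, which are cysteine-rich and often antifungal, made up 6 of the 18. LCR69 had 863, 880.2 and 1013 FPKM in dcp5-1 at 0 min against 332, 392 and 374 FPKM in Col-0, and its neighbour PDF2.1 had 14.2, 14.4 and 16 FPKM in dcp5-1 against 2.15, 5.47 and 1.92 FPKM in Col-0. AT2G36255 had the largest difference of the 18 at 0 min, with 10.8, 10.9 and 10.6 FPKM in dcp5-1 against 0.489, 0.574 and 0.524 FPKM in Col-0, or 2.94 log2 units. AT3G59930, which lies 10.8 kb along chromosome 3 with the growth gene ARGOS, had 115, 128 and 137 FPKM in dcp5-1 at 0 min and 37.7, 50 and 41.7 FPKM in Col-0.

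Peroxidases, which build hydrogen peroxide and crosslinks in the cell wall, supplied 3 of the 12 defence and cell wall members. PRXCB, an apoplastic peroxidase of the defence oxidative burst, had 218, 204 and 215 FPKM in dcp5-1 at 0 min against 52.8, 53.2 and 61 FPKM in Col-0, and 89.7, 88.3 and 91.3 FPKM in dcp5-1 at 60 min against 27.8, 29.4 and 27.3 FPKM in Col-0. The related peroxidase AT3G32980 had 151, 142 and 141 FPKM in dcp5-1 at 0 min and 50.9, 54.9 and 55.5 FPKM in Col-0, and PA2 had 9.06, 8.22 and 8.91 FPKM in dcp5-1 and 2.45, 1.9 and 2.44 FPKM in Col-0. Both PRXCB and AT3G32980 have close paralogs whose reads could be shared. OSM34, an osmotin of the PR5 family, had 108, 109.7 and 112 FPKM in dcp5-1 at 0 min against 32.9, 45.2 and 41.2 FPKM in Col-0. AT4G16260, a glycosyl hydrolase, had 70.9, 68.8 and 74.9 FPKM in dcp5-1 at 0 min against 26.9, 32.2 and 28.1 FPKM in Col-0. XTH31, which acts on the xyloglucan of the wall, had 49, 49.9 and 52.7 FPKM in dcp5-1 at 0 min against 21.3, 26.6 and 24.2 FPKM in Col-0, and 89.5, 87.6 and 90.9 FPKM in dcp5-1 at 60 min against 22.9, 25.2 and 22.4 FPKM in Col-0. The XTH31 difference was 1.04 log2 units at 0 min and 1.88 at 60 min, and its Col-0 libraries of both times overlapped.

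ACD6, an ankyrin-repeat membrane protein that promotes salicylic acid dependent defence and cell death, had 4.82, 5.05 and 5.24 FPKM in dcp5-1 at 0 min against 0.0882, 0.205 and 0.281 FPKM in Col-0, and 2.05, 2.06 and 2.28 FPKM in dcp5-1 at 60 min against 0.362, 0.148 and 0.273 FPKM in Col-0. It was the only member among 12 tested genes of salicylic acid defence and immune signalling. Of the 11 others, 6 were lower in dcp5-1 at 0 min and 5 did not pass in the limma fit (1 higher with the length trend removed), and 1 was higher and 5 lower at 60 min (2 higher with quantile normalization). The defence regulator WRKY33 was 1.41 log2 units lower in dcp5-1 at 0 min (limma adjusted p = 3.31e-08), and the resistance gene RPP4 was 1.10 lower (limma adjusted p = 6.5e-07). The salicylic acid synthesis gene ICS1 had mean levels of 3.05 FPKM in dcp5-1 and 4.13 FPKM in Col-0 at 0 min (limma adjusted p = 0.00438), and PR1 was below the expression minimum.

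In the plastid and metabolism group, 2 genes encode proteins of the outer envelope. OEP6, named in the annotation as an outer envelope membrane protein, had 690.0, 742 and 776 FPKM in dcp5-1 at 0 min against 143, 207 and 181 FPKM in Col-0, and 578, 568 and 591 FPKM in dcp5-1 at 60 min against 76.7, 87.3 and 77.6 FPKM in Col-0. OEP16-1, an amino acid channel of that membrane, had 58.1, 56.8 and 54.6 FPKM in dcp5-1 at 0 min and 14.5, 15.9 and 14.5 FPKM in Col-0. ELIP2, an early light-induced protein that protects thylakoids under excess light, had 599, 608 and 605 FPKM in dcp5-1 at 0 min against 203, 274 and 217 FPKM in Col-0, and 572, 581 and 590.5 FPKM in dcp5-1 at 60 min against 146, 143 and 130.5 FPKM in Col-0. The dcp5-1 libraries of ELIP2 stayed within 572 and 609 FPKM at both times. Of 8 tested genes of light response and photoprotection that did not meet the rule, 1 was higher and 3 lower in dcp5-1 at 0 min (2 higher with quantile normalization or with the length trend removed). At 60 min 5 of the 8 were higher and 3 did not pass (1 lower with quantile normalization, and 3 higher and 1 lower with the length trend removed). HY5, the main regulator of light-induced genes, was 0.39 log2 units higher in dcp5-1 at 0 min (limma adjusted p = 0.00198), and PSBS, which dissipates excess light, was 0.48 lower (limma adjusted p = 0.00052).

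PDX2, the glutaminase subunit of vitamin B6 synthesis, had 39.7, 35.4 and 35.7 FPKM in dcp5-1 at 0 min against 11.7, 15.2 and 12.5 FPKM in Col-0. CYP708A2, which hydroxylates the triterpene thalianol, had 44.4, 41.5 and 41.8 FPKM in dcp5-1 at 0 min against 19.5, 17.7 and 20.1 FPKM in Col-0, and 14.6, 16.8 and 15.9 FPKM in dcp5-1 at 60 min against 4.28, 5.51 and 4.76 FPKM in Col-0. CT-BMY, a chloroplast beta-amylase of starch breakdown, had 28.1, 26.5 and 26.8 FPKM in dcp5-1 at 0 min and 10.7, 11.4 and 11.1 FPKM in Col-0.

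Genes of RNA and protein synthesis were few. AT5G12110, a beta subunit of elongation factor 1, had 67.6, 68.5 and 67.9 FPKM in dcp5-1 at 0 min against 18.3, 24.7 and 19.7 FPKM in Col-0, and 44.7, 45.1 and 46.9 FPKM in dcp5-1 at 60 min against 8.05, 10 and 9.35 FPKM in Col-0. AT1G53690, annotated as a 7 kDa subunit of RNA polymerase, had 14.9, 16.9 and 18.4 FPKM in dcp5-1 at 0 min and 3.42, 4.22 and 3.42 FPKM in Col-0. RPL3B, a ribosomal protein, was 1.03 log2 units higher in dcp5-1 at 0 min and 1.23 at 60 min. None of 8 tested genes of the decapping machinery was a member, DCP5 included. In that list 2 were higher and 4 lower in dcp5-1 at either time, with DCP1 at -0.45 log2 units (limma adjusted p = 6.9e-05) and the LSM1 subunit LSM1B at 0.46 (limma adjusted p = 0.000947) at 0 min. XRN4 had mean levels of 7.18 FPKM in dcp5-1 and 7.65 FPKM in Col-0 at 0 min (limma adjusted p = 0.382). At 60 min XRN4 was lower in dcp5-1, at 10.4 FPKM against 13.5 FPKM in Col-0 (-0.34 log2 units, limma adjusted p = 0.0016).

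Among the remaining protein-coding members, ARGOS, an auxin-regulated promoter of organ growth, had 12.1, 11.4 and 10.9 FPKM in dcp5-1 at 0 min against 3.4, 5.03 and 5.21 FPKM in Col-0. At 60 min ARGOS had 44.1, 44.6 and 44.4 FPKM in dcp5-1 and 7.86, 9.34 and 7.03 FPKM in Col-0, and its difference of 2.33 log2 units then, against 1.18 at 0 min, was the largest change among the members. AT1G12080, annotated as a vacuolar calcium-binding protein, had 244, 227 and 230.4 FPKM in dcp5-1 at 0 min and 108, 102 and 107 FPKM in Col-0. AT1G51270, annotated as a vesicle-associated protein, had 30.5, 32.2 and 30.1 FPKM in dcp5-1 at 0 min and 4.5, 2.94 and 3.03 FPKM in Col-0, a difference of 2.85 log2 units.

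The largest differences belonged to loci that were nearly silent in Col-0. AT3G05845, a long non-coding RNA on chromosome 3, had 74.9, 69.6 and 88.2 FPKM in dcp5-1 at 0 min, against 1.23, 0 and 0 FPKM in Col-0, and 65.2, 54.6 and 73.6 FPKM in dcp5-1 at 60 min, against 0.519, 0 and 0 FPKM in Col-0. AT3G29631, a protein-coding locus on the opposite strand of the same interval, had a mean of 15.1 ± 3.23 FPKM (SD, n = 3) in dcp5-1 at 0 min and was listed at 0 in all 6 Col-0 libraries. With the neighbouring member AT3G29639 these 3 loci spanned 9.66 kb. AT2G11410, a pseudogene, had 8.06, 7.36 and 7.92 FPKM in dcp5-1 at 0 min, and AT2G11405 beside it had 3.46, 0.533 and 4.82 FPKM. Both AT2G11410 and AT2G11405 were listed at 0 in all 6 Col-0 libraries, which with AT3G29631 makes 3 such members, and 12 others were listed at 0 in 1 to 5 Col-0 libraries. AT4G08093, a transcribed pseudogene, had 14.9, 14.8 and 12.2 FPKM in dcp5-1 at 0 min and 0, 0.211 and 0 FPKM in Col-0. AT4G04293, another pseudogene, had 20.9, 14.1 and 17 FPKM in dcp5-1 and 0.644, 0.755 and 0.459 FPKM in Col-0. AT3G05945, a long non-coding RNA, had 32.9, 36.7 and 35.3 FPKM in dcp5-1 at 0 min against 1.05, 0.414 and 1.51 FPKM in Col-0, and 10.4, 15.7 and 11.7 FPKM in dcp5-1 at 60 min against 0.587, 0.917 and 0.287 FPKM in Col-0. These loci, like the TFL1, HSFA2, HSP17.4 and ACD6 genes above and all others outside the 30 in the plot of FPKM by library, are named for values already seen.

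**Figure D4:**
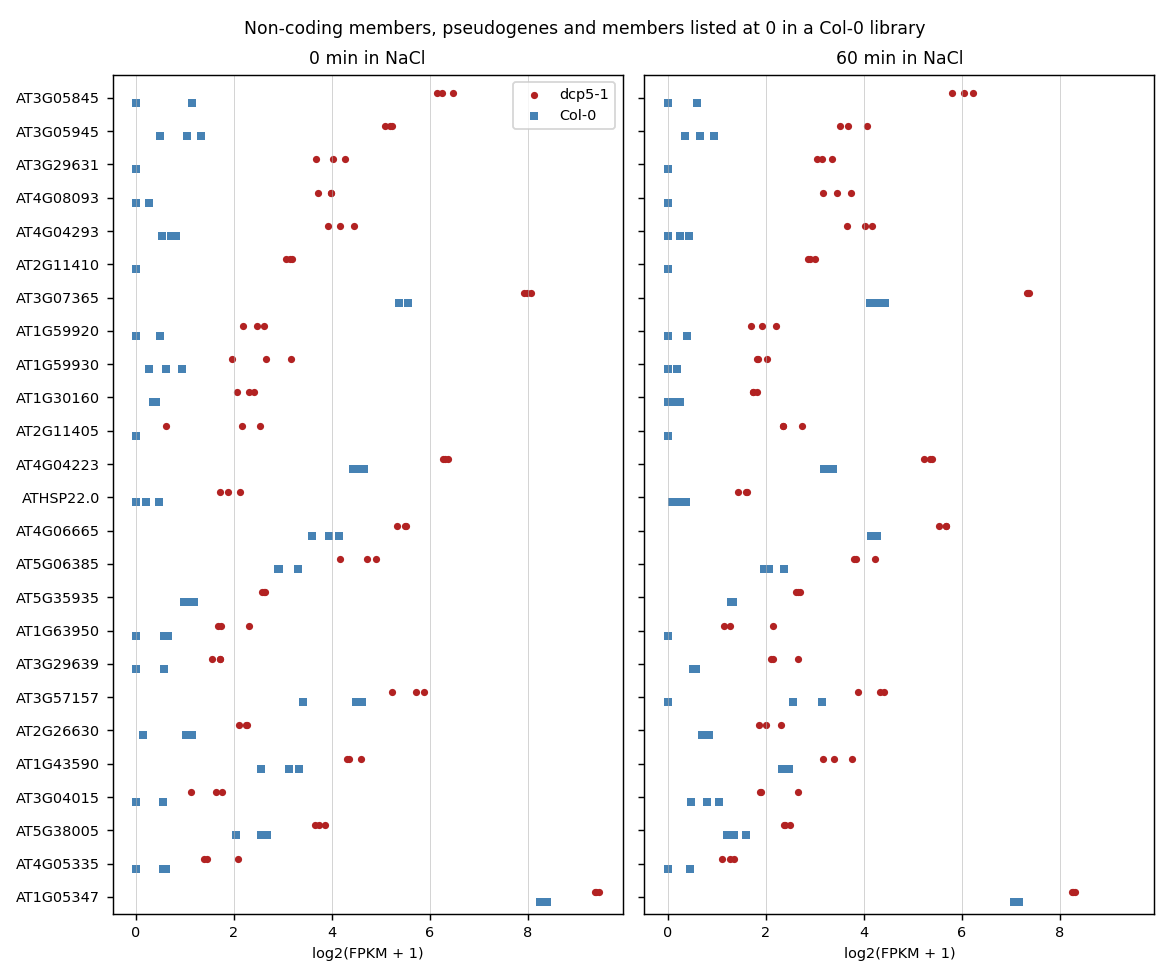
log2(FPKM + 1) of 25 members that are non-coding RNAs, pseudogenes or listed at 0 in a Col-0 library, at 0 min (left) and 60 min (right), one symbol per library (circles dcp5-1, squares Col-0), ordered by their difference at 0 min. AT3G05845 lies near 6 in dcp5-1 and at or near 0 in Col-0 at both times, while AT1G05347 at the foot is abundant in both genotypes.

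The members outside the 30 drawn in the plot of FPKM by library, which were those with a symbol or named product and the highest mean in dcp5-1, can be given by their range. In the small secreted group, 8 had means of 2.81 to 20.9 FPKM over the dcp5-1 libraries and were 1.03 to 2.94 log2 units higher in dcp5-1 at 0 min and 1.12 to 2.32 at 60 min. Of the defence and cell wall genes, 7 had 3.58 to 25.7 FPKM and were 1.03 to 2.34 higher at 0 min and 1.01 to 1.87 at 60 min. They include AIG2, an avirulence-induced gene, with 15.8, 14.2 and 14.4 FPKM in dcp5-1 at 0 min and 5.34, 4.5 and 6.34 FPKM in Col-0, and the germin-like protein gene GLP9 with 11.1, 11.1 and 11.2 FPKM in dcp5-1 and 1.89, 1.6 and 1.55 FPKM in Col-0. Of the genes for RNA and protein synthesis, 6 were 1.00 to 1.92 log2 units higher at 0 min and 1.01 to 2.5 at 60 min. Of the heat shock and chaperone genes, 9 were 1.01 to 1.80 log2 units higher at 0 min and 1.02 to 2.38 at 60 min, and of the plastid and metabolism genes 9 were 1.00 to 1.95 and 1.00 to 1.84 higher. Among the 9 plastid and metabolism genes, 5PTASE11, an inositol polyphosphate phosphatase, had 8.39, 7.85 and 8.59 FPKM in dcp5-1 at 0 min and 2.74, 3.5 and 3.56 FPKM in Col-0. The 11 other regulators were 1.04 to 2.26 higher at 0 min and 1.11 to 1.83 at 60 min, at 2.07 to 22.0 FPKM in dcp5-1. The 16 further protein-coding loci without a group were 1.00 to 3.98 higher at 0 min and 1.05 to 3.19 at 60 min, at 2.42 to 193.6 FPKM, and the most abundant of them was AT2G25510, an uncharacterized protein gene with 238, 246 and 262 FPKM in dcp5-1 at 0 min and 98.2, 129.7 and 127 FPKM in Col-0.

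For 61 of 62 members with a single transcript longer than 500 nt, read numbers could be estimated from the FPKM steps. The exception was CIB1, whose values below 20 reads were not all within 0.15 of a whole number, and it is left out here. Summed over 3 libraries the reads of the 61 were 80 to 53678 (median 612) in dcp5-1 and 0 to 21262 (median 175) in Col-0 at 0 min. At 60 min they were 56 to 75830 (median 621) in dcp5-1 and 0 to 29562 (median 193) in Col-0. In Col-0, 8 of the 61 had under 30 reads at both times, and in dcp5-1 none had under 30 at either time. The Col-0 level of those 8 is poorly known, and for members listed at 0 no ratio is given.

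Of 9 loci whose expression is known to depend on DNA methylation, most of them through silencing, 4 reached the expression minimum and none was a member. In the limma fit 1 of the 4 was higher in dcp5-1 at 0 min, 1 was lower, and 2, IBM1 and BNS, did not pass. At 60 min 2 were higher and 2 lower. QQS, an orphan gene of starch metabolism with variable methylation among lines, was 1.28 log2 units higher in dcp5-1 at 0 min (limma adjusted p = 8.08e-06) and 0.88 higher at 60 min, below the limit of the rule. The demethylase gene ROS1, which needs DNA methylation at its promoter for its expression, was 0.63 log2 units lower in dcp5-1 at 0 min (limma adjusted p = 0.000327).

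The make-up of the members is given beside that of the loci tested as a description. The rule did not name these features but is not independent of them. Loci near 0 in Col-0, such as AT2G11410, AT4G08093 and AT3G05845, reached the expression minimum only through the dcp5-1 libraries. Genotype differences also varied with transcript length, as given below. Of the 113, 17 were not protein-coding (15.0%, against 5.49% of nuclear loci tested), with 6 pseudogenes (5.31% against 0.919%) and 11 non-coding RNAs (9.74% against 4.08%). Among the loci lower in dcp5-1 by the opposite rule, 8.26% were not protein-coding. The protein-coding members had short transcripts, with a median of 1052 nt, against 1626 nt in the protein-coding loci of the opposite set and 1699 nt in the protein-coding loci tested. Over all 113 members the median was 995 nt. Up to 2 exons were found in 54.2% of the protein-coding members and 31.1% of the protein-coding loci tested, and a single exon in 26.0% and 15.8%. An annotated gene on the opposite strand overlapped 22 members (19.5%, against 29.9%). With the protein-coding loci cut into 3 equal bins by transcript length, the median genotype difference was -0.03 log2 units at 0 min and 0.13 at 60 min in the short bin, against -0.07 and -0.16 in the long bin. With the trend on transcript length removed from each library, the rule found 118 loci, 103 of them among the 113.

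The members were spread over all 5 chromosomes, with 21, 21, 24, 22 and 25 on chromosomes 1 to 5. As a share of the loci tested on a chromosome they ranged from 0.40% on chromosome 1 to 0.74% on chromosome 4. The nearest to DCP5 on chromosome 1 was 1.58 Mb away. In all, 26 members fell into 12 clusters with gaps of up to 30 kb, and 4 pairs of members overlap on opposite strands. HSP17.4 (chr3:16984118-16984867) and the long non-coding RNA AT3G07365 (chr3:16984335-16984787) are such a pair, and AT3G07365 had 267, 242 and 251 FPKM in dcp5-1 at 0 min and 40.3, 45.7 and 45.7 FPKM in Col-0. The others were AT3G29631 with AT3G05845, which share their cluster with AT3G29639, CT-BMY with AT4G06665, and AT5G42760 with AT5G06385. The counting is not stated to use strand, so the loci of such a pair cannot be told apart, and neither can a member and any other antisense partner. Some members, among them CIB1 and AT1G05347, also overlap an annotated gene on the same strand.

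The nearest tested genes beside the members gave 205 neighbours that are no members, so that a neighbour that meets the rule is not among them. Their median difference was 0.03 log2 units at 0 min and 0.07 at 60 min. In limma's test, 24.4% of the neighbours were higher and 25.4% lower in dcp5-1 at 0 min, against 18.8% and 28.1% of all loci tested. At 60 min 35.6% were higher and 22.4% lower, against 27.1% and 27.4%.

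The response to salt was not used by the rule and was tested in all members, with limma adjusted p-values over all 19876 loci. Averaged over the genotypes, 23 members were higher after 60 min in NaCl, 61 were lower and 29 did not pass, where 40.0% of all loci tested were called higher and 37.6% lower, or 77.6% in either direction. The median response of the members was -0.31 log2 units, against 0.02 over all loci tested. Short transcripts were lower after salt throughout these libraries, with a median response of -0.36 log2 units in the short bin of protein-coding loci and 0.31 in the long bin. With the trend on transcript length removed, 40 members were higher and 49 lower, against 37.3% and 36.1% of loci tested. The excess of falls among the members was thus smaller without the length trend.

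In dcp5-1 alone, 21 members were higher and 57 lower at 60 min than at 0 min (35.1% and 31.6% of loci tested, 66.7% in either direction). With the length trend removed 32 were higher and 44 lower (31.8% and 30.7% of loci tested). In Col-0 alone, 15 were higher and 49 lower (36.3% and 35.7% of loci tested, 72.0% in either direction). With the length trend removed 34 were higher and 35 lower (33.8% and 32.9% of loci tested), so the excess of falls in Col-0 was not seen on that scale. Of the 113, 10 were called higher in both genotypes, 40 lower in both, 2 in opposite directions, 26 in dcp5-1 but not in Col-0, 12 in Col-0 but not in dcp5-1, and 23 in neither. As shares, 8.85% of members and 28.9% of loci tested were higher in both, 35.4% and 27.2% lower in both, and 1.77% and 1.32% in opposite directions. Calls in dcp5-1 but not in Col-0 made up 23.0% of members and 9.30% of loci tested. Calls in Col-0 but not in dcp5-1 made up 10.6% and 14.7%, and calls in neither 20.4% and 18.7%. By the rule every member had its lower level in Col-0, and near 0 the log2(FPKM + 1) scale hides changes. AT3G29631 and AT2G11410, listed at 0 in all 6 Col-0 libraries, could have no call there. A pseudocount of 0.1 turned the order, with 73 members called in Col-0 and 67 in dcp5-1, against 64 and 78 on the main scale. With that pseudocount 36.2% of loci tested were called higher and 35.6% lower in Col-0, and 34.9% and 31.5% in dcp5-1. The shares of members therefore do not show which genotype responded more. The contrast between the genotypes' responses is made of the same values that chose the members and was not tested. The opposite pair were MYB28, at -0.37 log2 units in dcp5-1 and 0.44 in Col-0, and AT1G53690, at 0.30 in dcp5-1 and -0.28 in Col-0. The Col-0 response of AT1G53690 was 0.33 with the length trend removed.

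In the mean response 40.0% of all loci tested were called higher and 37.6% lower. These shares were 37.3% and 36.1% with the length trend removed, and 41.5% and 35.2% with quantile normalization. The counts by group are a description and were not tested against these shares. By group, the heat shock and chaperone members fell after salt, with 9 of 11 lower, 1 higher and 1 not called in the mean response (8 lower with the length trend removed). The higher one was HSP21 at 0.25 log2 units (limma adjusted p = 0.00986), with 0.52 in dcp5-1 (limma adjusted p = 0.00114) and -0.02 in Col-0 (limma adjusted p = 0.897), and HSP70 fell by 1.04 (limma adjusted p = 1.89e-07). Among 18 small secreted proteins the split depended on the scaling: 3 were higher and 11 lower with values as deposited, 7 and 6 with quantile normalization, and 9 and 4 with the length trend removed. Of 12 defence and cell wall genes 3 were higher and 8 lower, but 6 and 6 with the length trend removed. Of 14 plastid and metabolism genes 3 were higher and 9 lower. Of 17 non-coding RNAs and pseudogenes 3 were higher and 10 lower, and of 18 other protein-coding loci 5 were higher and 10 lower, but 7 and 7 with the length trend removed. The regulators were split, with 4 higher, 3 lower and 9 not called of 16 (7 higher and 3 lower with the length trend removed), and 5 of 7 genes of RNA and protein synthesis were not called.

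CIB1 rose most among the members, by 3.63 log2 units on average (SE 0.087, limma adjusted p = 7.54e-12), with 3.88 in dcp5-1 and 3.38 in Col-0. The annotated gene AT4G34540 overlaps CIB1 on the same strand, so reads could have been shared between them. RVE2 rose by 2.76 (SE 0.053, limma adjusted p = 1.46e-12), with 2.75 in dcp5-1 and 2.77 in Col-0. AT2G41231, an uncharacterized protein gene with the antisense partner ORS1, rose by 2.45 (limma adjusted p = 8.29e-09), ARGOS by 1.29 (limma adjusted p = 5.02e-08) and OEP16-1 by 0.48 (limma adjusted p = 5.42e-08). For CIB1 and RVE2 every library at 60 min was above every library at 0 min of both genotypes.

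Several of the most abundant members fell. CYP708A2 fell by 1.58 log2 units (limma adjusted p = 2.02e-10), AT4G16260 by 1.33 (limma adjusted p = 2.66e-10), PRXCB by 1.09 (limma adjusted p = 3.19e-10) and PDX2 by 1.05 (limma adjusted p = 5.45e-08). FLC fell by 1.09 (SE 0.056, limma adjusted p = 4.42e-09), with -0.90 in dcp5-1 and -1.28 in Col-0. OSM34 fell by 0.82 (limma adjusted p = 1.53e-07). GASA1 fell by 0.87 (limma adjusted p = 1.18e-07) and OEP6 by 0.73 (limma adjusted p = 3.46e-06), but only by 0.18 and 0.28 with quantile normalization. GRP3S, GRP9, LCR69, ELIP2, AT2G37870 and AT3G59930 were called lower by 0.20 to 0.43 log2 units, but the sign of all 6 turned with quantile normalization and with the length trend removed, so no direction is given for them.

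**Figure D5:**
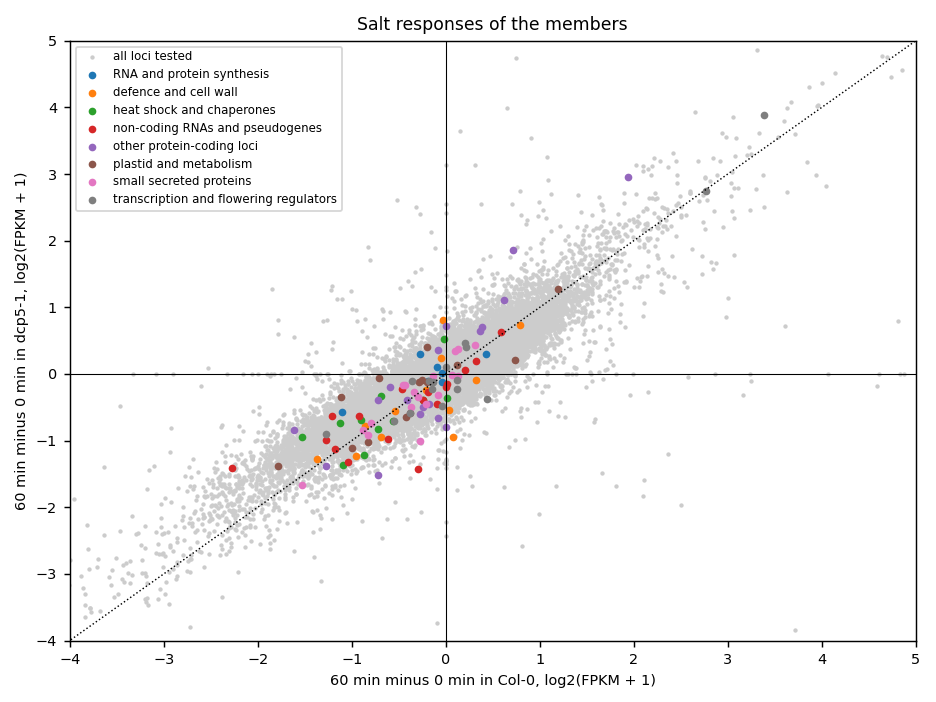
Response to 60 min in NaCl, as log2(FPKM + 1) at 60 min minus 0 min, in Col-0 (x axis) and in dcp5-1 (y axis) for all loci tested (grey) and the 113 members by group (colours). The dotted line marks equal responses, most members lie in the lower left where both fell, CIB1 and RVE2 lie at the upper right, and 81 loci are outside the axes.

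Between the times the genotype difference changed little for most members, which the rule favours by asking for 1 log2 unit at both. The change, 60 min minus 0 min, ranged from -1.12 to 1.15 log2 units with a median of 0.02, and 58 differences were larger and 55 smaller at 60 min. Among 15 members with a gain of 0.5 or more were ARGOS, XTH31, OEP6 and ELIP2. Among 9 members with a loss of 0.5 or more were ACD6, MYB28, GLP9 and OEP16-1.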

How the data were processed

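RNA of 12 libraries was compared, 3 for each genotype and time. The authors deposited 1 table with a value per locus and library for 38088 loci. Neither its header nor the labels name the unit. The deposited values are taken as FPKM, because low values step by amounts that depend on transcript length and library: 98.3% to 99.1% of values below 10 reads came within 0.1 read of a whole number over 14027 single-transcript loci longer than 1000 nt. Bowtie, with no version, and the TAIR10 build are named in the submitters' processing notes. The quantification program is not given in the sources used here, nor are the annotation and any strand setting. Names, products and coordinates come from the TAIR10.1 RefSeq annotation, which matched 37792 loci and left 296 unmatched. Promoter windows of 250 bases were read from its genome.

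The scale was log2(FPKM + 1), for 19876 loci whose mean reached 1 FPKM. The fit, in limma 3.58.1 (R 4.3.3), has 4 group means over all 12 libraries and variances trended on expression (8 residual and 3.29 prior degrees of freedom). P-values are two-sided and Benjamini-Hochberg adjusted across every locus tested, and a locus is called at an adjusted p below 0.05. Tables and figures used Python 3.11.15, numpy 2.4.6, pandas 2.3.3 and matplotlib 3.10.9.

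The members, the gene lists and the tests were chosen with earlier results of these data known. Values per library are given for the members with a symbol or named product and the highest mean in dcp5-1, up to 30, and from each list up to 2 tested genes per direction with the largest difference at 0 min, leaving out those that meet the rule, are named as background; any other locus was named after its values were seen. The functional groups were assigned by hand after the values were seen. Alternatives were quantile normalization, a pseudocount of 0.1, no expression minimum, removal of the transcript length trend, limma without its trend, a replicate block, fits on the compared libraries alone and leaving out each library.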

Additional observations from a re-analysis of the deposited data

Results flagged for a closer look

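Salt moved every library of MYB28 one way in one genotype and the opposite way in the other: its response was -0.37 log2 units in dcp5-1 and 0.44 in Col-0. The polymerase subunit gene AT1G53690 did the same with the signs exchanged, at 0.30 log2 units in dcp5-1 and -0.28 in Col-0. The difference between the responses was not tested for either gene, because the genotype differences that make it up chose the members. For AT1G53690 the response in Col-0 turned to 0.33 once the transcript length trend was removed. By limma calls, opposite responses made up 1.77% of members and 1.32% of all loci tested, so they are not particular to the members.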

How the results depend on the processing

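The rule found 129 loci with quantile normalization (112 of the 113), 118 with the transcript length trend removed (103 of them), 115 with no expression minimum, 206 with a pseudocount of 0.1, which gives low loci larger differences, and 103 to 118 when 1 library was left out. Members called higher after salt numbered 40 in the mean response, 34 in Col-0 and 32 in dcp5-1 with the length trend removed. The shares of all loci tested were then 37.3%, 33.8% and 31.8%. Leaving out 1 library gave 79 to 87 members called in the mean response (20 to 24 higher, 58 to 65 lower), 67 to 82 in dcp5-1 (15 to 23 higher, 51 to 59 lower) and 59 to 63 in Col-0 (13 to 18 higher, 44 to 49 lower). Signs that turned, with quantile normalization and with the length trend removed in that order, were those of GRP3S (0.22, 0.036), GRP9 (0.28, 0.24), LCR69 (0.28, 0.24), ELIP2 (0.11, 0.088), AT2G37870 (0.12, 0.25) and AT3G59930 (0.030, 0.36) in the mean response; the cause was not tested. The Col-0 response of AT1G53690 became 0.33 with the length trend removed. LTP2 (0.22), GRP9 (-0.31) and AT2G05510 (0.25) each lost their call when some single libraries were left out.

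Same-numbered replicates of different groups correlated at -0.10 to 0.18 in their deviations, and no pair of groups exceeded 0.1 for all 3 numbers. The highest set was dcp5-1 at 0 min with dcp5-1 at 60 min, at 0.18, 0.08 and 0.11. Libraries with different numbers were not compared, so whether the numbers pair the libraries is not settled. With the replicate block, 83 members were called in the mean response, 73 in dcp5-1 and 61 in Col-0.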
